A study of Zea mays with 4 samples.

Results

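Small RNA of the maize seminal root (SR, 7 days after germination) was compared with that of the later primary root (PRO, 15 days), in 1 library each. Both came from Zea mays cultivar Zhengdan 958 grown in Hoagland's solution without any treatment named in the labels, and RNA was taken from the first 1 cm of the root tip. SR roots were picked at a length of about 3 to 5 cm, and no length is given for PRO. The early primary root (PRY, 3 days) served as a second reference point, and crown root (CR, 15 days) levels are quoted beside some results. Of the 576 mature miRNA entries in the table, 97 reached 10 RPM (reads of an miRNA for every 1000000 reads of its library) in SR or PRO and entered the comparison. They comprised 84 known miRNAs in 17 families and 13 candidate miRNAs, whose names are not given here. Just inside this minimum lay miR166a-5p, at 10.5 RPM in PRO, and just outside it lay a candidate at 9.42 RPM in SR and miR169a-3p at 8.23 RPM in PRO.

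Plant miRNAs are cut from hairpin precursors as a duplex of a 5p and a 3p strand, of which mostly one is loaded into an ARGONAUTE protein and guides the cleavage or repression of matching transcripts. Many conserved families act on transcription factors that set root meristem size, branching and the juvenile-to-adult transition. The primary and seminal roots of maize are both formed in the embryo, and seminal roots arise at the scutellar node. Members of one miRNA family can differ by a base or none, so a read can count for several entries. The 84 known and 13 candidate entries held 78 distinct sets of values, and identical entries are described together.

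Library totals recovered from the values were 11572637 reads for SR and 11057522 for PRO, so 1 read was worth 0.0864 and 0.0904 RPM. With 1 library per group there is no replicate check, no p-value is given, and root type and age cannot be told apart. Intervals in parentheses are 95% intervals for counting error alone. Known miRNAs took a smaller share of the SR library: the top entries of the 29 families summed to 7.17% of its reads, against 9.12% in PRO. It differs in the same direction as most differences below, and its part in them was not tested. Levels were therefore also compared with another 5 scalings, which rest on miRNA reads in place of all reads. The triggers of reproductive phased siRNAs, miR2118 and miR2275, were nearly empty, with 0 reads of any entry in SR and 1 read each of miR2118c and miR2118d in PRO. No miRNA in the table is an established marker of the seminal or the primary root, so the root labels could not be checked.

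SR held lower levels than PRO for most miRNAs, and few differences were large. Entries were counted where log2(RPM + 1) differed between the libraries by at least 1, or 2-fold. By this rule 17 of 97 entries (17.5%) were lower in SR, 2 (2.06%) were higher and 78 were neither. The 17 lower entries held 14 distinct sets of values and belonged to miR169 (5), miR172 (6), miR319 (2), miR156 (1) and the candidates (3). Both higher entries were candidates, at 7.14 and 7.05 RPM in PRO, so they passed the minimum of 10 RPM through SR alone. Some lower entries, such as miR169i-3p and miR169k-3p, passed it through PRO alone. The median difference was -0.34, and 82 entries lay below 0. It shifted to between -0.06 and 0.00058 with the other scalings, which left 5 entries lower (5.15%) and either 4 (4.12%) or 5 (5.15%) higher. The 5 lower entries were miR169i-3p, miR169k-3p, miR169c-3p and 2 candidates in each scaling. The direction was kept in all 6 scalings by 48 of the 82 entries below 0. The other scalings all raised SR against PRO by similar amounts. For this comparison they therefore amount to little more than 1 alternative setting, and for higher calls they were the lenient choice. Both higher calls and the direction of all 15 entries above 0 were kept, but under these scalings they could not be lost.

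**Figure D1:**
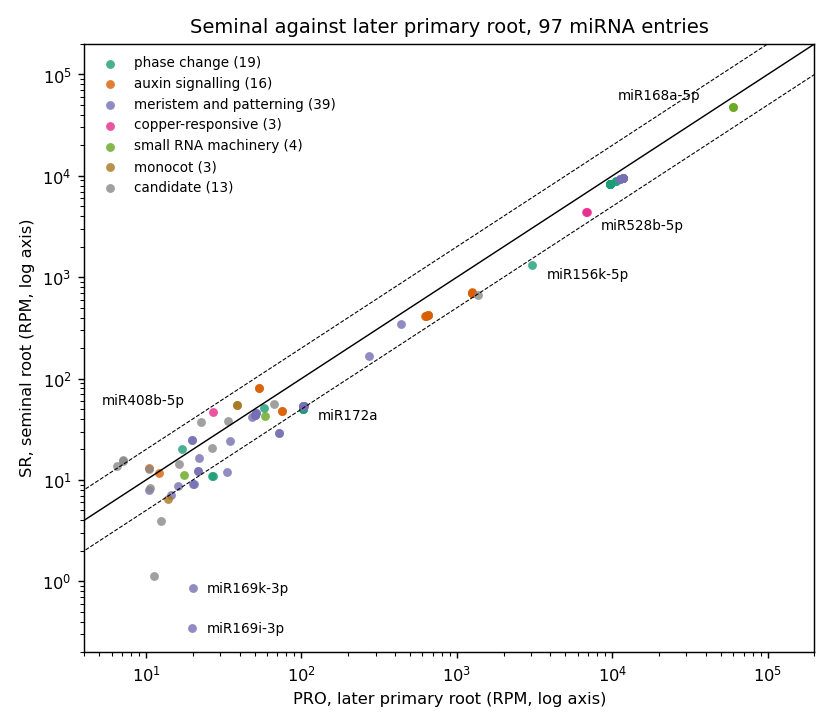
Level of each of the 97 entries in PRO (x axis) and SR (y axis), in RPM on log axes, coloured by list of families. The solid line marks equal levels and the dashed lines a 2-fold ratio; miR169i-3p and miR169k-3p lie far below the lower dashed line, at 0.346 and 0.864 RPM in SR.

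**Figure D2:**
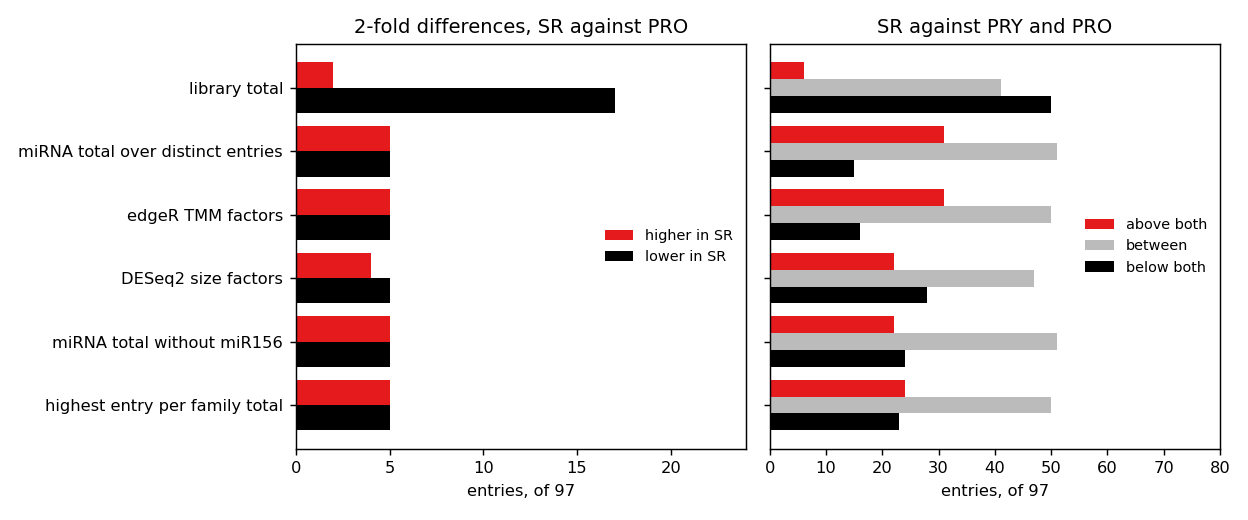
Number of entries 2-fold higher or lower in SR than in PRO (left), and number with SR above, between or below PRY and PRO (right), under the library total and another 5 scalings. The 17 lower entries under the library total shrink to 5 under each other scaling.

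Families were grouped by the role of their targets. Their counts stand beside the 17 of 97 entries (17.5%) lower over the whole comparison. In the phase change list 7 of 19 measured entries were lower and 12 neither, with a median of -0.22. All 7 calls held with the library total alone, and 4 of the 7 share 1 miR172 value. In the auxin signalling list all 16 were neither, with a median of -0.62. The meristem and patterning list had 7 of 39 lower and 32 neither, with a median of -0.36, and 3 of the 7 calls held in every scaling. None of the 3 copper-responsive entries (median -0.62), 4 entries of the small RNA machinery list (-0.39) or 3 monocot entries (0.49) was counted. Over all 97 entries the median was -0.34. With other scalings, pseudocounts or ways of counting entries, the median changed sign in 5 of 9 alternatives for phase change and in 2 of 9 for monocot families, and in none for the other 4 lists.

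**Figure D3:**
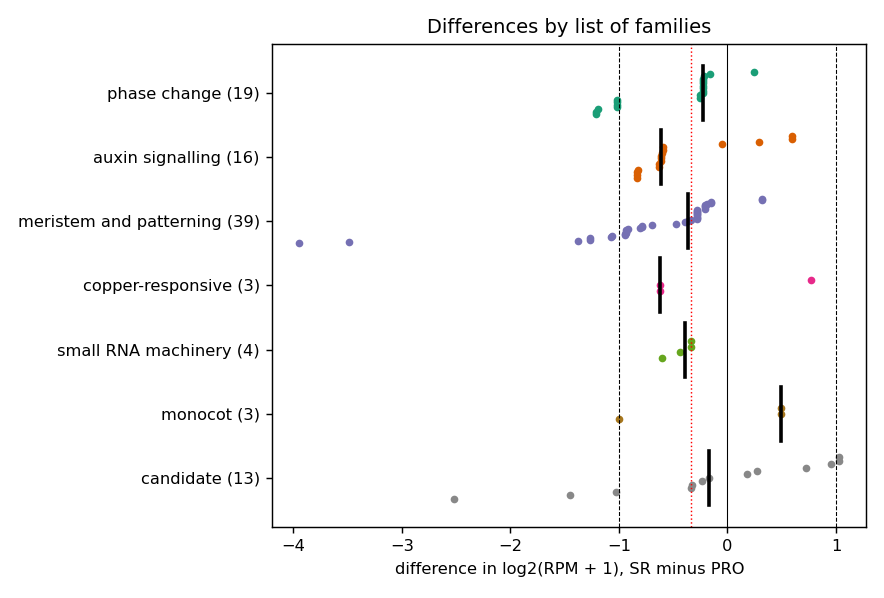
Difference in log2(RPM + 1), SR minus PRO, of each entry by list of families, with the number of entries in parentheses. Black bars mark list medians, the red dotted line the median of all 97 entries (-0.34), and dashed lines the threshold of 1; the meristem and patterning list spreads from -3.94 to 0.32.

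miR172 and a divergent miR156 member were lower in SR, while the main miR156 strands differed little. miR172 represses AP2-like transcription factors and is known to accumulate as the plant matures. Its mature strand, the same value for miR172a, miR172b-3p, miR172c-3p and miR172d-3p, stood at 18.5 RPM in PRY, 50.2 in SR, 102.9 in PRO and 24.6 in CR. PRO was thus the highest library and SR the second. SR was 2.05-fold lower than PRO (1.85 to 2.27), and the difference of -1.02 passed the threshold with the library total alone, lying between -1.02 and -0.67 over the scalings. The opposite strand miR172b-5p stood at 26.7 RPM in PRO and 11.0 in SR, and was also counted as lower with the library total alone. miR172c-5p, below the minimum, had 40 reads in PRO and 4 in SR. RefSeq lists separate genes for the precursors MIR172b, MIR172c and MIR172d, and equal values of their 3p entries cannot be assigned to one of them.

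miR156, which represses SPL transcription factors and holds the plant in its juvenile phase, differed little in its main strands. miR156a-5p stood at 20450 RPM in PRY, 8308 in SR, 9686 in PRO and 4099 in CR. SR was 1.17-fold lower than PRO (1.16 to 1.18), and lay above PRO in the other 5 scalings. A divergent member, miR156k-5p, behaved otherwise, with 966 RPM in PRY, 1332 in SR, 3040 in PRO and 1163 in CR. PRO stood apart from the other 3 libraries. SR was 2.28-fold lower than PRO (2.24 to 2.33), a call that held with the library total alone, while the direction held in all 6 scalings. Ratios of entries inside one library do not depend on scaling. miR156a-5p was 94.1 times as abundant as miR172a in PRO, 165 times in SR and 1107 times in PRY, so this ratio was 1.76-fold higher in SR than in PRO (1.59 to 1.94). miR156a-5p outnumbered miR156k-5p 3.19 to 1 in PRO and 6.24 to 1 in SR. The star strand miR156b-3p was at 17.0 RPM in PRO and 20.3 in SR, with an interval of the ratio (0.98 to 1.45) that includes 1.

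Of the auxin families, miR167 targets activators among the auxin response factors. All 10 measured 5p entries were lower in SR in all 6 scalings, though none reached the threshold. They fell into 2 groups of nearly equal values. miR167b-5p, with miR167a-5p, miR167c-5p and miR167d-5p close by, stood at 288 RPM in PRY, 709 in SR, 1258 in PRO and 826 in CR, and SR was 1.77-fold lower than PRO (1.73 to 1.82). miR167e-5p, of the other group, stood at 377, 422, 648 and 631 RPM in the same order. With the library total SR was the nearer to PRY, and in the other 5 scalings the nearer to PRO. The ratio of miR167a-5p to miR167e-5p was 1.94 in PRO, 1.67 in SR and 0.761 in PRY. The 3p strands miR167h-3p and miR167i-3p, which share 1 value, went the other way: 185 RPM in PRY, 81.0 in SR, 53.3 in PRO and 176 in CR. SR was 1.52-fold higher than PRO (1.37 to 1.69).

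miR390a-5p, which starts the production of trans-acting siRNAs against repressive auxin response factors, stood at 45.1 RPM in PRY, 48.2 in SR, 75.4 in PRO and 33.5 in CR. SR was 1.56-fold lower than PRO (1.40 to 1.74). It was the nearer to PRY with the library total and the nearer to PRO in the other 5 scalings. miR160 targets the repressive auxin response factors directly. Its 3p strand miR160a-3p had 116 reads in PRO and 151 in SR, with an interval of the ratio (0.97 to 1.60) that includes 1. The 5p strand miR160a-5p, below the minimum, had 37 reads in PRO and 7 in SR, 5.53-fold lower (2.43 to 14.7), and 33 in PRY and 6 in CR. SR and CR were thus the low libraries for this strand. miR393a-5p, which targets auxin receptors, had 38 reads in PRO and 24 in SR, with an interval of the ratio (0.35 to 1.03) that includes 1.

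The meristem and patterning list held the largest differences among the known miRNAs at 10 RPM or more, in 3p strands of miR169. This family targets NF-YA subunits of the nuclear factor Y, which in legumes act in the nodule meristem. Targets of the 3p strands were not examined, so their differences cannot be read as differences in action on NF-YA. miR169i-3p had 240 reads in PRY, 4 in SR, 218 in PRO and 53 in CR. SR was 57.0-fold lower than PRO (22.0 to 211). miR169k-3p had 337, 10, 220 and 28 reads in the same order, and SR was 23.0-fold lower (12.3 to 48.7). For both, PRY and PRO were high, CR was intermediate and SR was lowest. Their 5p strands, below the minimum, did not follow to that extent: miR169i-5p had 41 reads in PRO and 24 in SR. The main 5p entry of the family, miR169c-5p, stood at 66.8 RPM in PRY, 29.1 in SR, 71.6 in PRO and 57.6 in CR, so SR alone was low. It was 2.46-fold lower than PRO (2.16 to 2.80), a call that held with the library total alone, with the direction kept in all 6 scalings. miR169r-5p carried nearly the same values. The strand opposite miR169c-5p, miR169c-3p, at 33.0 RPM in PRO and 12.1 in SR, was 2.73-fold lower (2.24 to 3.34), in all 6 scalings. The remaining measured entries, miR169a-5p and miR169b-5p, differed by -0.81 and -0.91 on the log2 scale and were not counted.

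miR319, which targets TCP transcription factors of cell proliferation, had all 4 measured entries lower in SR in each scaling. miR319a-3p stood at 32.9 RPM in PRY, 9.16 in SR, 20.3 in PRO and 14.3 in CR. SR was the lowest library, 2.21-fold below PRO (1.75 to 2.81), and this call and that of miR319c-3p held with the library total alone. miR319b-3p, the highest entry, was 1.78-fold lower (1.44 to 2.21), at 12.2 against 21.7 RPM. The related miR159, which targets MYB transcription factors, stood at 87.1 RPM in PRY, 53.6 in SR, 103.3 in PRO and 55.4 in CR by its entry miR159a-3p. SR and CR were close together, and SR was 1.93-fold lower than PRO (1.75 to 2.13). The 5 measured entries of miR159 differed by -0.94 to -0.93 on the log2 scale, short of the threshold. The ratio of miR159a-3p to miR319a-3p differed by 1.15-fold between SR and PRO, with an interval of 0.89 to 1.47 that includes 1.

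miR164, which targets NAC transcription factors, among them, in Arabidopsis, regulators of lateral root formation, was represented by 6 entries, all lower in SR with the library total. miR164e-5p stood at 105 RPM in PRY, 168 in SR, 273 in PRO and 113 in CR, with SR 1.62-fold below PRO (1.53 to 1.72) and the same direction in all 6 scalings. miR164a-5p stood at 35.7, 43.3, 50.3 and 76.2 RPM, and its small difference of -0.21 turned to higher in the other 5 scalings. miR166a-3p, a repressor of class III HD-ZIP genes, was 1.21-fold lower in SR (1.21 to 1.22), at 9618 against 11684 RPM, and also turned to higher in 5. miR396c, which targets growth-regulating factors, had 565 reads in PRO and 530 in SR, with an interval of the fold decrease (0.99 to 1.26) that includes 1.

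miR171h-5p and miR171k-5p, which share 1 value, were the exception in this list. The miR171 family targets GRAS transcription factors through its 3p strand, and targets of this 5p strand were not examined. These 5p entries stood at 9.42 RPM in PRY, 24.9 in SR, 19.7 in PRO and 22.9 in CR, so PRY was the low library. SR was 1.26-fold higher than PRO (1.05 to 1.51), a direction that the other scalings, which raise SR against PRO, could only widen. Of the 26 entries of the family below the minimum, 7 were lower in SR beyond counting error and none was higher, beside 44 lower and 5 higher of all 237 known entries below the minimum. One of the 7, miR171b-3p, had 60 reads in PRO and 39 in SR, a ratio of 0.62 (0.40 to 0.94).

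The measured entries of the copper-responsive families also differed in direction. miR528, found in monocots, acts on messages of copper-binding proteins, and miR528b-5p stood at 1203 RPM in PRY, 4439 in SR, 6830 in PRO and 479 in CR. PRO and SR were both far above the other libraries, and SR was 1.54-fold lower than PRO (1.52 to 1.56). miR408b-5p, the 5p strand of a family that targets plantacyanin and laccases, stood at 3.45, 46.8, 27.1 and 16.4 RPM in the same order. Here SR was the highest library, 1.73-fold above PRO (1.50 to 1.99). The difference of 0.77 passed the threshold in the other 5 scalings, which all raise SR against PRO. Targets of miR408b-5p itself were not examined. The opposite strand miR408b-3p, below the minimum, had 41 reads in PRO and 35 in SR, with an interval of the ratio (0.50 to 1.31) that includes 1. The ratio of miR528b-5p to miR408b-5p, free of scaling, was 252 in PRO and 94.8 in SR, 2.66-fold lower in SR (2.31 to 3.06). miR398a-3p, a regulator of Cu/Zn superoxide dismutase, had 25 and 17 reads, and the interval of their ratio (0.33 to 1.25) includes 1.

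Of the small RNA machinery list, miR168a-5p, a regulator of AGO1 itself, topped both libraries, at 60102 RPM in PRO and 47529 in SR. It was 1.26-fold lower in SR (1.26 to 1.27), and its sign turned in 2 of the 6 scalings. miR162-3p, which targets DCL1, had 12 and 5 reads, with an interval of the ratio (0.11 to 1.21) that includes 1. Of the monocot families, miR444a, which targets MADS-box transcription factors, stood at 58.5 RPM in PRY, 55.0 in SR, 38.7 in PRO and 74.7 in CR. PRO was the lowest library, and SR was 1.42-fold higher (1.25 to 1.61), a direction that the other scalings could only widen. miR1432-5p reached 13.9 RPM in both PRY and PRO, 6.48 in SR and 8.79 in CR. It was 2.15-fold lower in SR than in PRO (1.62 to 2.87) by reads, and just short of the threshold on the log2 scale.

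**Figure D4:**
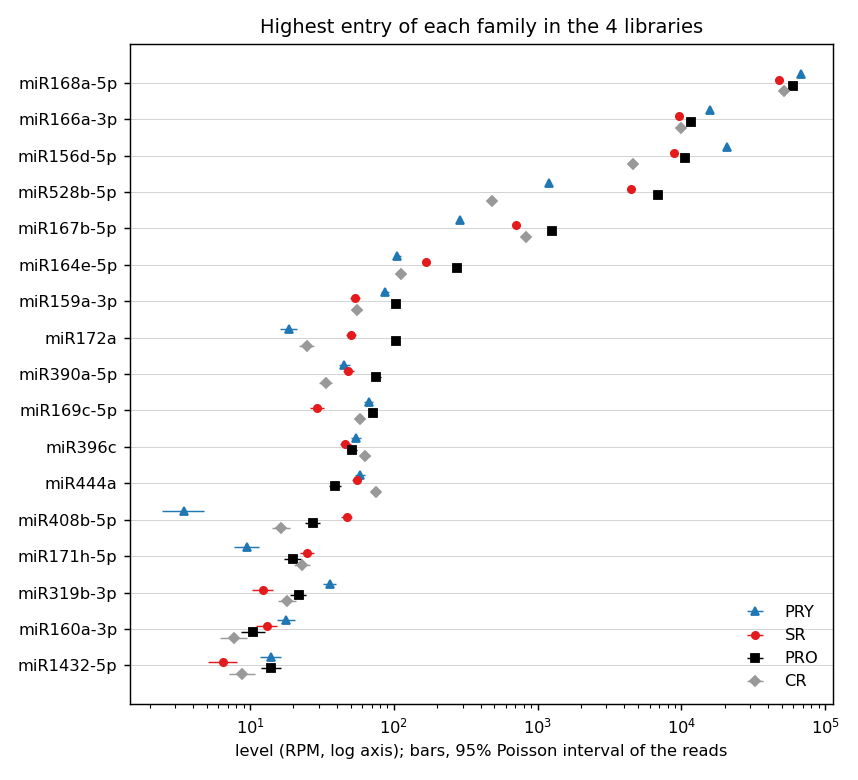
Level of the highest entry of each of the 17 families in the 4 libraries, in RPM on a log axis, with 95% Poisson intervals of the reads as bars. With the library total, as drawn, SR (red) lies between PRY (blue) and PRO (black) for miR172a, miR167b-5p, miR528b-5p, miR164e-5p, miR390a-5p, miR160a-3p and miR444a. Counting error leaves the place of miR390a-5p, miR160a-3p and miR444a unresolved. For miR160a-3p and miR444a SR lies above both in the other 5 scalings. SR is the lowest point for miR169c-5p, miR319b-3p and miR1432-5p, and by smaller margins for miR159a-3p, miR168a-5p, miR166a-3p and miR396c. For these 4 the place depends on scaling. SR is below both PRY and PRO in 4 of the 6 scalings for miR159a-3p and in 2 for miR168a-5p. It is so in only 1 for miR166a-3p and miR396c.

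Levels in SR did not form a simple intermediate between the early and the later primary root. With the library total, SR lay between PRY and PRO for 41 of the 97 entries, below both for 50 and above both for 6. Beyond counting error against both libraries, 28 lay between, 46 below and 4 above, and 19 were not resolved. By distance on the log2 scale SR was nearer to PRO for 68 entries and nearer to PRY for 29, and PRO stayed the nearer for 61 to 72 entries over the 6 scalings. The median distance was 0.59 between SR and PRO, 0.73 between SR and PRY, and 0.70 between PRO and PRY. Scaling moved the counts outside the range most, from 6 to between 22 and 31 above both, and from 50 to between 15 and 28 below both.

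For 47 entries the place was the same in all 6 scalings, and entries of a family can share reads. Below both primary root libraries lay 14 of them: all 7 measured entries of miR169, all 4 of miR319, miR1432-5p, miR168a-3p and 1 candidate. Above both lay miR171h-5p, miR171k-5p, miR408b-5p and 3 candidates. The other scalings all raise SR against PRY and PRO, so a place above both could not be lost under them. Between them lay 27 entries, with all 6 of miR172, the 10 5p entries of miR167, both of miR528 and both of miR390 among them, together with miR156k-5p and miR164e-5p.

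Where PRO was 2-fold or more above PRY, 18 of 19 entries had SR between them, and the other, miR408b-5p, had SR above both. These entries were picked for a wide gap, in which a further library falls more readily, and some share identical values. CR also lay between PRY and PRO for miR172a, miR167b-5p, miR164e-5p, miR156k-5p and miR408b-5p. It lay below both for miR528b-5p and above both for miR167b-3p. On a log2 scale set to 0 at PRY and 1 at PRO, SR stood at a median of 0.59 among these 19 with the library total and between 0.74 and 0.80 with the other 5 scalings. Over all 6 the position ranged from 0.75 to 0.90 for miR528b-5p, from 0.61 to 0.81 for miR167b-5p and from 0.58 to 0.76 for miR172a. It ranged from 0.49 to 0.80 for miR164e-5p and from 0.28 to 0.60 for miR156k-5p, in each case with the library total at the low end. Where PRO was 2-fold or more below PRY, 9 of 12 entries had SR below PRO as well with the library total, 8 of them main strands of miR156. In the other 5 scalings these strands lay between PRO and PRY. The remaining 3 of the 12, miR156b-3p (0.41 to 0.83) and both miR167h-3p and miR167i-3p (0.28 to 0.66), lay between in all 6.

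**Figure D5:**
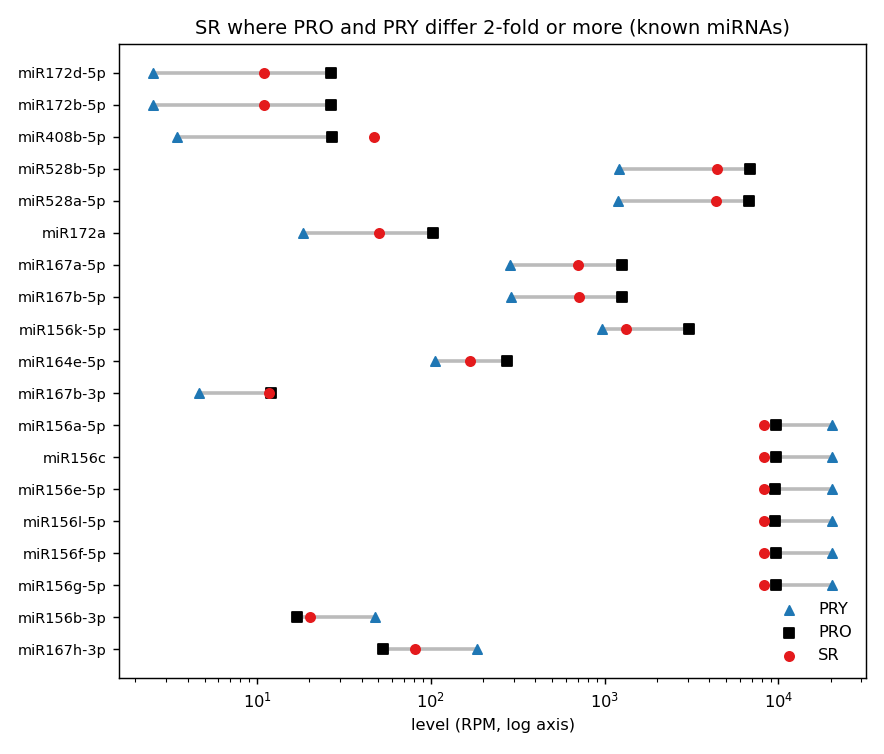
Levels in PRY, PRO and SR, in RPM on a log axis, of the known miRNAs whose PRO and PRY levels differed 2-fold or more, with identical entries shown once. The grey line joins PRY and PRO; SR (red) lies on the line for miR172, miR167, miR528, miR156k-5p and miR164e-5p, to the right of it for miR408b-5p, and slightly to the left for the main miR156 strands.

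The ratio of the 5p to the 3p entry of 1 name, free of scaling, differed between SR and PRO in some families. Sister entries share reads, such as miR167h-3p with miR167i-3p, so these ratios cannot be assigned to 1 hairpin. The pairs were chosen after their values were seen, and their intervals use the normal approximation on the log scale. For miR169i the ratio of 5p to 3p reads was 0.300 in PRY, 6.00 in SR, 0.188 in PRO and 1.00 in CR, so SR alone had more 5p than 3p reads in number. It was 31.9-fold higher in SR than in PRO (10.5 to 96.8), on 4 reads of the 3p strand. For miR169k it was 0.214 in PRY, 2.40 in SR, 0.182 in PRO and 1.86 in CR, 13.2-fold higher in SR than in PRO (5.87 to 29.7). Here CR also had more 5p than 3p reads. miR167h moved the other way, with 11.8 reads of 5p per 3p read in PRO and 5.13 in SR, 2.30-fold lower (2.06 to 2.57). miR160a differed in the same direction, with a ratio of 0.319 in PRO and 0.0464 in SR, 6.88-fold lower (2.96 to 16.0). For miR169c the interval of the ratio between libraries (0.88 to 1.40) included 1.

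Of the 237 known entries below the minimum, 96 were listed at 0 in both libraries, 44 were lower in SR beyond counting error and 5 were higher. The nutrient families lay here entirely. miR395, which targets ATP sulfurylase and a sulfate transporter, made up 18 of the 44 lower entries, which share reads. miR395a-3p had 1 read in PRY, 1 in SR, 62 in PRO and 47 in CR, a ratio of PRO over SR of 64.9 (11.2 to 2604). Both 15-day libraries thus held reads of this miRNA, and both younger ones hardly any. miR827-3p, which targets SPX-domain proteins of phosphate homeostasis, had 45, 27, 78 and 38 reads, and SR was 3.02-fold lower than PRO (1.93 to 4.87). miR399e-5p, of a family that represses PHO2 in phosphate signalling, had 5 reads in PRO and 2 in SR.

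Candidate miRNAs showed differences in both directions. Of the 13 measured, 3 were lower in SR, 2 higher and 8 neither. Their median was -0.17, and its sign turned under 5 of the 8 alternatives tried. The most abundant stood at 286 RPM in PRY, 669 in SR, 1365 in PRO and 1122 in CR, 2.04-fold lower in SR than in PRO (1.99 to 2.10), and its call held with the library total alone. Another had 5 reads in PRY, 13 in SR, 124 in PRO and 144 in CR, and was 9.98-fold lower in SR (5.63 to 19.3), so both 15-day libraries stood above both younger ones. The third lower candidate was 3.19-fold lower (2.26 to 4.57). The higher candidates had 79 reads in PRO against 181 in SR, 2.19-fold higher (1.67 to 2.89), and 78 against 179. Both were below 10 RPM in PRO and entered through SR alone. One candidate listed at 0 in PRY stood at 16.3 RPM in PRO and 14.3 in SR, with an interval of the ratio (0.71 to 1.09) that includes 1.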

How the data were processed

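Per the labels' protocols, the 18 to 30 nt band was cut from a gel and sequenced on an Illumina/Solexa instrument after 18 PCR cycles. How reads were mapped and candidates predicted is not stated there. The authors deposited 1 normalized value per entry and library under the heading TPM. These were treated as RPM, because every deposited value was a whole multiple of 1 step per library: 100% came out as whole reads within 0.01 read. Totals were 11572637 reads in SR, 11057522 in PRO, 10721082 in PRY and 10920069 in CR; whether they cover all or only mapped reads is not known.

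Differences are of log2(RPM + 1), in which adding 1 shrinks the ratios of rare miRNAs. Folds compare recovered reads per library total, with exact conditional binomial (Clopper-Pearson) intervals of 95%. Without molecular identifiers PCR copies cannot be told from molecules, and intervals cover counting error only. The quasi-likelihood test of edgeR was not possible on 1 library per group. Scalings used the total over distinct miRNA entries, edgeR 4.0.16 TMM factors, DESeq2 1.42.0 size factors, the miRNA total without miR156, and the sum of each family's highest entry. Named were up to 10 entries each way with the largest differences among those counted and at 50 RPM or more, and the highest entry per family; others were chosen after their values were seen. The members and lists were chosen with earlier results of these data known. Precursor genes were found in RefSeq (Zm-B73-REFERENCE-NAM-5.0) for 79 of the 84 known entries. Calculations used Python 3.11.15, pandas 2.3.3, numpy 2.4.6, scipy 1.17.1, matplotlib 3.10.9 and R 4.3.3, and the code for the calls was tested on simulated data.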

Additional observations from a re-analysis of the deposited data

Results flagged for a closer look

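Several entries under the minimum in both SR and PRO carried signal in a library outside this comparison. miR160b-3p and miR160g-3p, which share 1 value, stood at 16.1 RPM in PRY, and miR169a-3p and miR169b-3p stood there at 17.5 and 17.6 RPM. miR169o-5p stood at 13.3 RPM in PRY, with 7 reads in SR and 0 in PRO. A candidate miRNA stood at 33.2 RPM in CR, with 363 reads there and 0 reads in each of the other 3 libraries.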

How the results depend on the processing

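No paired analysis was possible because each group had 1 library, and no library could be left out. The counts of higher and lower entries (2 and 17) became 5 and 5 with the miRNA total, TMM factors, the total without miR156 and the highest entries, and 4 and 5 with DESeq2 factors. They became 24 and 59 with no filter, 0 and 8 at 50 RPM, 0 and 6 with a pseudocount of 10, 0 and 2 for the highest entry per family, 0 and 3 for family sums, and the higher count was 0 for known miRNAs. Reads without a pseudocount, chosen after seeing the data, gave 3 and 19. The median of -0.34 became -0.032 (miRNA total), -0.048 (TMM), -0.064 (DESeq2), 0.00058 (without miR156, the opposite sign), -0.0051 (highest entries), 0 (no filter), -0.62 (highest entry per family) and -0.53 (family sums). Above both references, 6 became 31, 31, 22, 22 and 24 in the order of the scalings, 83 with no filter, 0 at 50 RPM, 2 and 1 by family and 3 for known miRNAs. Below both, 50 became 15, 16, 28, 24 and 23, then 115, 33, 8 and 9 up to family sums. Between them, 41 became 132 with no filter and 7 and 8 by family. Fewer or more entries are counted by construction under other filters and by family. The other scalings also move the counts by construction. They multiply SR by 1.14 to 1.21, PRO by 0.91 to 0.98 and PRY by 0.65 to 0.82. Why miRNA reads took a different share of each library was not tested. The other 33 values for these 6 results stayed within 1.5 times, or 0.1 for the median. Depth limits entries with few reads in a library, such as miR169i-3p with 4 reads in SR and miR169k-3p with 10. It also limits those near the minimum, such as miR166a-5p with 116 reads in PRO and 92 in SR.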

Other observations

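Below the minimum, the counts of known and candidate entries differed in direction. How candidates were predicted is not stated. A candidate found only through the reads of SR or of PRO would be higher there by construction. The candidate counts therefore cannot be read as a difference between the roots. Of 242 candidates, 65 were higher in SR than in PRO beyond counting error, 33 were lower and 102 were listed at 0 in both. Of 237 known entries, 5 were higher and 44 lower. Among the 5 were both 3p strands of miR528, with miR528b-3p at 26 reads in SR and 9 in PRO, while the 5p strands were lower in SR.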
